A study of Mus musculus with 45 samples.

Results

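Integrin transcripts were followed in bone marrow-derived macrophages as 10 genes that encode integrin subunits: the alpha subunits *Itgal*, *Itgam*, *Itgax*, *Itga4*, *Itga5*, *Itga6* and *Itgav* and the beta subunits *Itgb1*, *Itgb2* and *Itgb5*. The genes were found by symbol in the deposited CPM table and then by Ensembl identifier in the count table. All 10 were present among its 29307 genes, and all 10 passed the low-count filter that left 12905 genes for testing. The smallest count of any of them in a library was 259 reads.

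The cells came from C57BL/6N mice, 6 to 10 weeks old, whose *Famin* gene (*Lacc1*) had been engineered to encode one of the human variants p.254I, p.254V or p.284R. Every group therefore carried an engineered allele, and *Famin* p.254I, which stands for the fully active form, served as the reference for p.254V, the inflammatory bowel disease risk variant, and p.284R, the variant of a monogenic disease. Marrow from 15 mice, 5 per genotype, was cultured for 6 days, and the macrophages of each mouse were either left unstimulated (M0), stimulated with IFN-γ and LPS (M1) or with IL-4 (M2). That gave 45 libraries, 15 per polarization and 5 in each of the 9 groups. The count table holds no alleles, so the genotype labels were not checked. Values are CPM, reads scaled to a common library size with TMM-adjusted totals, and CPM per kilobase of annotated exon where different genes are set beside each other.

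Integrins are heterodimers of an alpha and a beta subunit that hold cells to matrix and to one another, and their ligand binding is switched on from inside the cell when talin and kindlin engage the beta tail. The beta2 chain *Itgb2* (CD18) is restricted to leukocytes and pairs with *Itgal* (CD11a, forming LFA-1, which binds ICAMs), *Itgam* (CD11b, forming Mac-1 or complement receptor type 3), *Itgax* (CD11c) and *Itgad* (CD11d). The beta1 chain *Itgb1* pairs with *Itga4* (VLA-4, a receptor of VCAM-1 and fibronectin), *Itga5* (the classical fibronectin receptor) and *Itga6* (a laminin receptor), while *Itgav* pairs with *Itgb5*, *Itgb3*, *Itgb1* and others to bind RGD-containing ligands such as vitronectin. CD11b and CD11c are widely used as myeloid surface markers.

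The CD11 genes lie close together on mouse chromosome 7 (GRCm38, plus strand): *Itgal* at chr7:127296260-127335138, *Itgam* at chr7:128062640-128118491 and *Itgax* at chr7:128129547-128150657. *Itga4* (chr2:79255426-79333123), *Itga6* (chr2:71745616-71858416) and *Itgav* (chr2:83724397-83806916) share chromosome 2. *Itga5* is on chromosome 15, *Itgb1* on chromosome 8, *Itgb2* on chromosome 10 and *Itgb5* on chromosome 16. *Itgam* needs care, because the annotated gene *Gm49368* runs along the same strand and shares 3450 of its 5024 exon bases. Reads from shared bases may have been dropped or split, since the way reads were assigned is not stated, and *Gm49368* itself was listed at a median of only 0.587 CPM in M0 and 2.28 CPM in M2. The level of *Itgam* against other genes is therefore given on both lengths where it matters, whereas its change between polarizations compares the same bases in all libraries.

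The neighbours *Itgam* and *Itgax* moved to very different degrees with IL-4, and the 250 bases before their starts are shown for that reason (RefSeq, GRCm38.p6, plus strand, 5′ to 3′). Capitals mark matches on either strand to 3 sets of letters: GAGGAA (the core bound by Ets factors such as PU.1), TTCNNNGAA (an interferon gamma activated site) and the STAT6 spacing, TTC and GAA with 4 bases between them (STAT6 is the factor that IL-4 activates).
Itgam, chr7:128062390-128062639: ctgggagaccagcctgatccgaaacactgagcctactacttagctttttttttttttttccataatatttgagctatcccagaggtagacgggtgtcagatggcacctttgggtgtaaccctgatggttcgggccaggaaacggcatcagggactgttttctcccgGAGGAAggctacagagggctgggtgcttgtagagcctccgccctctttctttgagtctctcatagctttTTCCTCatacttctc
Itgax, chr7:128129300-128129549: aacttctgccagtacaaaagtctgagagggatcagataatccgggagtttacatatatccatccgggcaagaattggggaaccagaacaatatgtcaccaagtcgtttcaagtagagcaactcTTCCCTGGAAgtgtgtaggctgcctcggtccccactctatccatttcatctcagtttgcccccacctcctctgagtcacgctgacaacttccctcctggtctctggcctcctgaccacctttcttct
The *Itgam* stretch held 2 copies of the Ets letters, which 23.3% of all 32851 promoter windows of this length hold at least once, and neither STAT spacing. The *Itgax* stretch held 1 match to the STAT6 spacing, TTCCCTGGAA, 127 to 118 bases before the start. That spacing was present in 5.85% of all windows, the interferon gamma activated site in 7.02%, and no marked matches overlapped. Promoter entries were used for 7 of the 10 genes, with *Itga6*, *Itgal* and *Itgb2* not analysed here. Among those 7, the Ets letters were also found in *Itgav* (2 copies), *Itga5* (1 copy) and *Itgb1* (1 copy), and the STAT6 spacing in *Itgax* alone. These are matches of letters and were not tested for binding.

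The libraries carried between 17239009 and 43740283 counts (median 27553642). The 8 macrophage markers summed to medians of 28287 CPM in M0 (20072 to 33554), 12263 CPM in M1 (11558 to 15452) and 11839 CPM in M2 (9688 to 13870), with 5 called lower and 2 higher in M1 than in M0 and 7 lower and 1 higher in M2. *Lyz2* was the largest part of the sum, at medians of 17251, 5772 and 5192 CPM. The 2 markers higher in M1 were *Fcgr1* (1203 CPM in M1) and *Spi1* (337 CPM in M0, 451 CPM in M1), and *Spi1* was the 1 higher in M2 (383 CPM). *Adgre1*, encoding F4/80, had medians of 3081, 2183 and 1760 CPM. *Fcgr1*, *Cd14* and *Mertk* were at 46.6, 49.4 and 75.5 CPM in M2 against 347, 424 and 207 CPM in M0. The part of these changes in the integrin values was not tested. The 3 M1 markers tested (*Nos2*, *Cxcl9*, *Gbp2*) were called higher in M1 than in M0, and all 4 M2 markers higher in M2 than in M0. *Cxcl9* had medians of 0.397 CPM in M0, 3262 CPM in M1 and 0.266 CPM in M2, and *Arg1* 0.276, 0.653 and 1030 CPM. *Nos2* reached only 19.7 CPM at the M1 median (3.01 to 149). The fourth M1 marker, *Il12b*, stayed below the filter, at an M1 median of 0.0831 CPM. Libraries from 2 *Famin* p.254I mice stood apart. The M1 library of replicate 5 held 40.8 CPM of *Arg1* and 49.1 CPM of *Retnla*, against at most 0.912 CPM of *Arg1* in the other M1 libraries, and 27 of 8404 expressed genes were over 2-fold above every other M1 library. In the M0 library of replicate 4, 95 of these genes lay over 2-fold above or below every other M0 library, including *Fcgr1* at 1098 CPM against 347 CPM at the median, and in the M2 library of the same mouse 27 genes did so. Each result was therefore also computed without 4 libraries, the 3 of *Famin* p.254I replicate 4 and the M1 library of replicate 5. The M1 library of replicate 4 had only 2 such genes and was left out with its mouse. No call on an integrin gene between polarizations changed without these 4 libraries.

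On the scale of CPM per kilobase, the beta chains led in unstimulated cells. *Itgb2* had a median level of 407 CPM per kilobase in M0 (range 346 to 453), *Itgb1* 190 (172 to 200) and *Itgb5* 93.2 (68.1 to 127). These M0 ranges were apart between *Itgb2* and *Itgb1* and between *Itgb1* and *Itgb5*, whereas that of *Itgb5* overlapped that of *Itgam*, which came next at 59.5. *Itgax* (28.9), *Itga5* (28.7) and *Itga6* (28.2) had nearly the same median level per kilobase in M0, and *Itga4* (20.0), *Itgal* (12.6) and *Itgav* (9.14) closed the order, each overlapping its neighbour.

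Stimulation rearranged the order, with *Itgb2* in the first place in each state. In M1, *Itgb2* (519 CPM per kilobase) and *Itgb1* (169) stayed ahead, *Itgal* took the next place at 56.1, its lowest library (44.5) above the highest of *Itgam* (42.0), and *Itgb5* moved down to 25.8. *Itga6* fell to the last place at 4.61 CPM per kilobase, apart from *Itgav* above it. In M2, *Itgb2* reached 934 and *Itgax* 424 CPM per kilobase, which put *Itgax* above *Itgb1* (198) with no overlap of libraries. *Itgal* moved to the end of the order in M2 at 4.30, overlapping *Itgav* at 6.30. With all its reads divided by its 1574 unshared exon bases, *Itgam* was at 190 CPM per kilobase in M0, 99.0 in M1 and 230 in M2. That length assumes that no read from the shared bases was counted, and the level is otherwise too high. It would put *Itgam* level with *Itgb1* in M0 and above *Itgal* in M1. In M2 its median would be above that of *Itgb1* (198), with overlapping libraries.

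**Figure D1:**
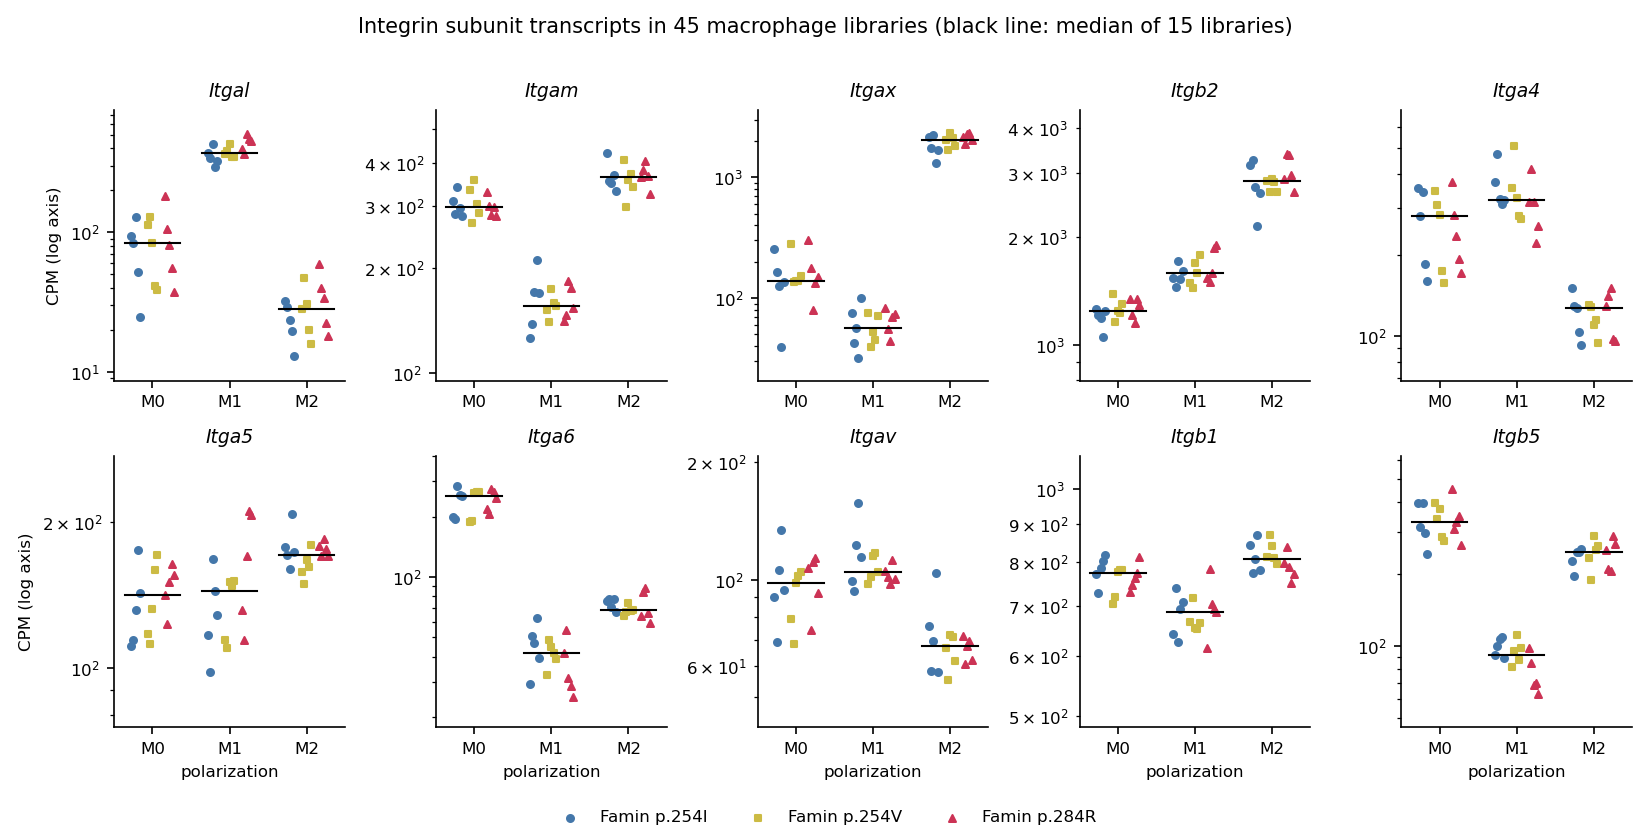
CPM of the 10 integrin genes (log axis) in each of the 45 libraries, by polarization, with 1 point per library, colour and shape for the *Famin* genotype and a black line at the median of 15 libraries. *Itgax* in M2 (1312 to 2340 CPM) and *Itgal* in M1 (292 to 505 CPM) lie above every library of the other polarizations, while the 3 genotypes intermingle.

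Against M0, IFN-γ and LPS raised 4 of the 10 integrin genes (*Itgal*, *Itga4*, *Itgb2*, *Itgav*) and lowered 5 (*Itga6*, *Itgb5*, *Itgax*, *Itgam*, *Itgb1*), leaving *Itga5* without a call. IL-4 raised 5 (*Itgax*, *Itgb2*, *Itga5*, *Itgam*, *Itgb1*) and lowered 5 (*Itga6*, *Itgal*, *Itga4*, *Itgav*, *Itgb5*). A gene was called where the quasi-likelihood test of edgeR gave an adjusted p under 0.05, with Benjamini-Hochberg correction across the 12905 genes. The stimuli moved most of the transcriptome, with 77.3% of all genes called between M1 and M0 (37% higher, 40.3% lower), 76.4% between M2 and M0 (36.8% higher, 39.6% lower) and 79.1% between M1 and M2 (39% higher, 40.1% lower), so 9, 10 and 10 called integrin genes are a share near that of all genes. The ranges of the 15 libraries were apart for 5 integrin genes between M1 and M0, 4 between M2 and M0 and 6 between M1 and M2, against 28.6%, 23.4% and 35.7% of all genes. Between M1 and M2, 3 of the 10 genes were higher in M1 (*Itgal*, *Itga4*, *Itgav*) and 7 lower. The median log2 difference of the 10 genes was -0.07 for M1 against M0, -0.20 for M2 against M0 and -0.53 for M1 against M2, with -0.03, -0.03 and -0.0089 over all genes. Because RNA came from whole cultures, fewer cells of a kind and less transcript per cell cannot be told apart.

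**Figure D2:**
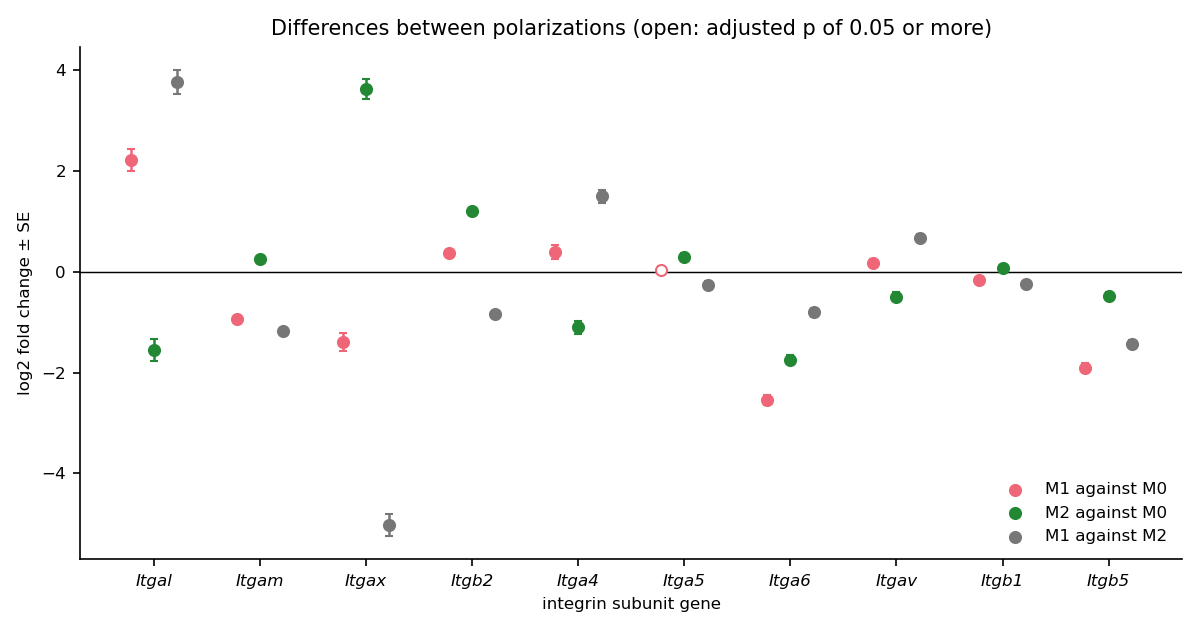
Log2 fold changes (points) with their standard errors (bars) from edgeR's fit for M1 against M0, M2 against M0 and M1 against M2, with 15 libraries per polarization. *Itgax* spans the widest interval, from -5.02 for M1 against M2 to 3.63 for M2 against M0, and the only open symbol is *Itga5* for M1 against M0.

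*Itgax*, encoding CD11c, had the largest response to IL-4 of the 10 genes. Its level ran from 39.3 to 303 CPM in M0 (median 139), from 32.0 to 101 CPM in M1 (median 56.4) and from 1312 to 2340 CPM in M2 (median 2035). Every M2 library stood far above every other library, whereas M0 and M1 overlapped. The M2 level was 12.4-fold that of M0 (log2 difference 3.63 ± 0.20 SE, adjusted p = 3.17e-19) and higher in 15 of 15 mice, with log2 ratios per mouse between 2.83 and 5.06. M1 was lower than M0 in all 15 mice (log2 -1.40 ± 0.18, adjusted p = 9.78e-09). Of the libraries that stood apart, the M1 library of p.254I replicate 5 was the highest M1 library for *Itgax* at 101 CPM, and the M0 library of replicate 4 the lowest M0 library. Leaving out the 3 libraries of p.254I replicate 4 and the M1 library of replicate 5 gave -1.50 for M1 against M0 and 3.59 for M2 against M0.

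*Itgal*, encoding CD11a, went the other way. It had 24.8 to 181 CPM in M0 (median 83.1), 292 to 505 CPM in M1 (median 368) and 12.9 to 59.7 CPM in M2 (median 28.3). All 15 M1 libraries were above all others, and M0 and M2 overlapped, since the lowest M0 libraries reached into the M2 range. M1 exceeded M0 4.65-fold (log2 2.22 ± 0.22, adjusted p = 6.73e-12), and M2 was below M0 in each of the 15 mice (log2 -1.55 ± 0.22, adjusted p = 4.45e-08). Between the stimulated states the difference was 13.6-fold (log2 3.77 ± 0.23). Dispersion among libraries also differed: the SD of log2 CPM within groups was 0.87 in M0 and 0.61 in M2, yet 0.18 in M1.

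*Itgam*, encoding CD11b, changed less than its neighbour. Its M0 libraries lay between 269 and 355 CPM (median 299), its M1 libraries between 126 and 211 CPM (median 156) and its M2 libraries between 299 and 426 CPM (median 363). M1 was separate from both other states, while M0 and M2 overlapped. M1 was 1.90-fold below M0 (log2 -0.93 ± 0.06, adjusted p = 4.68e-18), and M2 was 1.19-fold above M0 (log2 0.25 ± 0.06, adjusted p = 1.37e-04), in 15 of 15 mice each.

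*Itgb2*, the shared CD18 chain, rose with both stimuli. CPM ran from 1055 to 1383 in M0 (median 1243), from 1441 to 1903 in M1 (median 1585) and from 2140 to 3399 in M2 (median 2849), with no overlap between any of the 3 states. M2 was 2.32-fold above M0 (log2 1.21 ± 0.05, adjusted p = 2.04e-23) and M1 1.30-fold above M0 (log2 0.38 ± 0.05, adjusted p = 8.22e-09). The lowest M2 library was that of p.254I replicate 4, at 2140 CPM, and it still exceeded all M1 libraries.

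The alpha partners of CD18 can be read as shares of their summed CPM per kilobase. In M0, *Itgam* made up 60.1% at the median, *Itgax* 32.0%, *Itgal* 11.2% and *Itgad* 0.28%. In M1 the largest share was that of *Itgal* (57.8%, range 47.3% to 62.6%), with *Itgam* at 30.2% and *Itgax* at 12.0%. In M2 *Itgax* held 84.3% (78.1% to 86.5%), *Itgam* 14.4% and *Itgal* 0.85%. The predominance of *Itgax* in M2 held on both lengths (64.0% with *Itgam* by unshared bases), but that of *Itgal* in M1 did not, because *Itgam* then held 57.9% and *Itgal* 35.0%. The 4 alpha chains together amounted to 0.263 of the *Itgb2* level in M0, 0.198 in M1 and 0.521 in M2, per kilobase of all exon bases, and to 0.576, 0.331 and 0.724 with *Itgam* by unshared bases. These are transcript shares, and surface protein was not measured here.

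**Figure D3:**
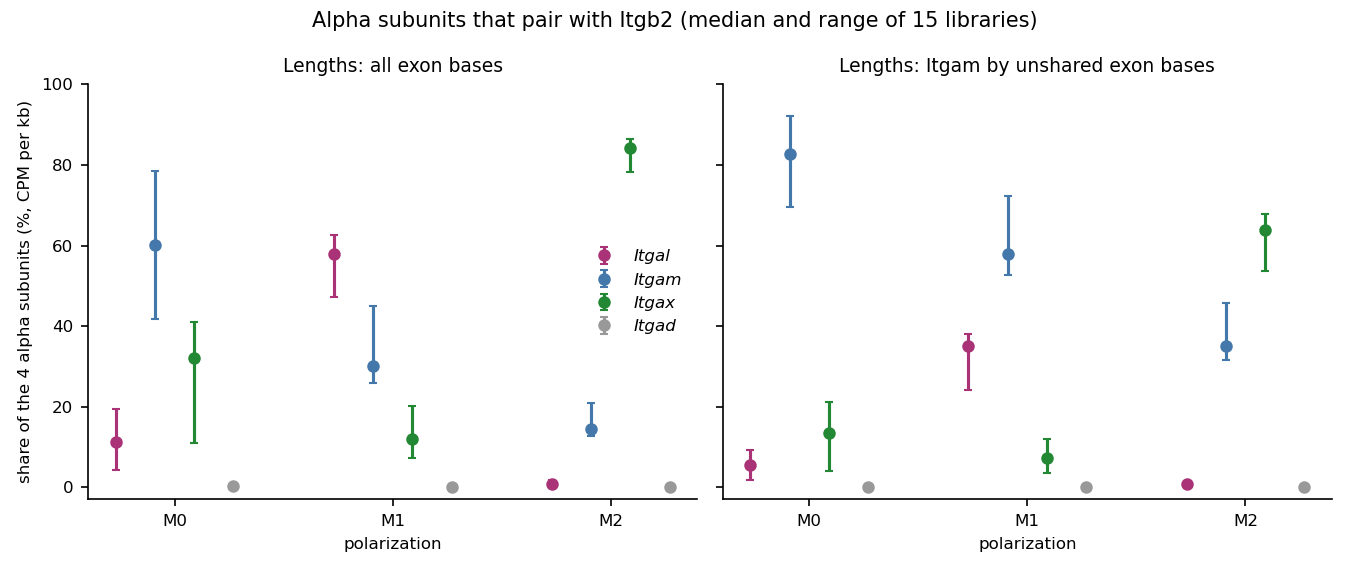
Share of each alpha subunit in the summed CPM per kilobase of *Itgal*, *Itgam*, *Itgax* and *Itgad*, by polarization, as the median (point) and the lowest and highest of 15 libraries (bars), with all exon bases as lengths (left) or only the unshared bases of *Itgam* (right). The leading share is *Itgam* in M0 and *Itgax* in M2 in both panels, and in M1 it is *Itgal* at left and *Itgam* at right.

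Of the alpha partners of beta1 among the 10 genes, *Itga6* had the largest changes from M0. The laminin receptor chain was at 187 to 285 CPM in M0 (median 254), 25.2 to 62.2 CPM in M1 (median 41.6) and 58.8 to 88.6 CPM in M2 (median 68.6). M0 was separate from both stimulated states, which overlapped each other through the highest M1 library, that of p.254I replicate 4. *Itga6* fell 5.83-fold in M1 (log2 -2.54 ± 0.10, adjusted p = 1.41e-24) and 3.34-fold in M2 (log2 -1.74 ± 0.10, adjusted p = 3.60e-19), in every mouse.

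*Itga4*, the VLA-4 alpha chain, separated the stimuli. It ranged from 158 to 373 CPM in M0 (median 279), from 223 to 510 CPM in M1 (median 322) and from 92.7 to 151 CPM in M2 (median 127). M2 lay below all libraries of the other states, and M1 and M0 overlapped widely. IL-4 lowered it 2.14-fold (log2 -1.10 ± 0.13, adjusted p = 1.45e-09) in 15 of 15 mice, and IFN-γ with LPS raised it 1.32-fold (log2 0.40 ± 0.13, adjusted p = 0.0064) in 13 of 15. *Itga4* overlaps *Cerkl* on the opposite strand over 1124 exon bases, which matters only if reads were counted without regard to strand.

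*Itga5*, the alpha chain of the fibronectin receptor, responded to IL-4 alone among the calls. CPM ranged from 111 to 175 in M0 (median 142), from 98.2 to 210 in M1 (median 144) and from 149 to 208 in M2 (median 171), and the states overlapped. M2 exceeded M0 1.23-fold (log2 0.30 ± 0.08, adjusted p = 0.00128), in 15 of 15 mice, although one log2 ratio was as small as 0.02. For M1 against M0 the log2 difference was 0.03 ± 0.08 (adjusted p = 0.721), with 6 mice higher and 9 lower, and M1 was below M2 (log2 -0.26 ± 0.08, adjusted p = 0.00356) in 12 of 15.

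*Itgb1* varied least. Its CPM lay between 704 and 818 in M0 (median 774), 614 and 785 in M1 (median 688) and 751 and 871 in M2 (median 808). The 3 states overlapped, and the SD of log2 CPM within groups did not exceed 0.10. M1 was 1.12-fold below M0 (log2 -0.17 ± 0.03, adjusted p = 9.11e-06) in 13 of 15 mice. The M2 rise was 1.06-fold (log2 0.08 ± 0.03, adjusted p = 0.0194) in 12 of 15, and without the low-count filter it was no longer called (adjusted p = 0.0618).

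*Itgb5*, a partner of alpha v, fell with both stimuli. It was at 242 to 452 CPM in M0 (median 331), 63.0 to 111 CPM in M1 (median 91.5) and 188 to 289 CPM in M2 (median 248). M1 was separate from both other states, while M0 and M2 overlapped. The M1 level was 3.73-fold below M0 (log2 -1.90 ± 0.08, adjusted p = 3.13e-23) in all mice and the M2 level 1.39-fold below (log2 -0.47 ± 0.08, adjusted p = 1.37e-06) in 13 of 15.

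*Itgav* itself moved little and in opposite directions. It had 68.4 to 134 CPM in M0 (median 98.2), 93.5 to 157 CPM in M1 (median 104) and 55.3 to 104 CPM in M2 (median 67.7), and all 3 states overlapped. The mouse p.254I replicate 4 gave the highest value in each state. IL-4 lowered *Itgav* 1.41-fold (log2 -0.49 ± 0.08, adjusted p = 2.14e-06) in 15 of 15 mice. The rise with IFN-γ and LPS, 1.13-fold (log2 0.18 ± 0.08, adjusted p = 0.0499) in 11 of 15 mice, sat at the threshold: it lost its call in 13 of 26 alternatives (adjusted p between 0.0504 and 0.0774), 9 of which left out a single mouse, and kept it with the mouse as a fixed block (adjusted p = 3.26e-04).

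Beyond these genes, 11 of the 16 other integrin subunits listed passed the filter, with 4 higher and 5 lower in M1 than in M0 and 3 higher and 4 lower in M2 than in M0. In the same comparisons 77.3% and 76.4% of all genes were called. *Itgb3*, another partner of alpha v, had medians of 15.1 CPM in M0, 1.28 CPM in M1 and 149 CPM in M2 (log2 -3.38 ± 0.20 and 3.17 ± 0.17 against M0). Its highest M1 library, at 8.73 CPM, was that of p.254I replicate 5. *Itgb7*, which pairs with alpha 4, went from 27.5 to 152 CPM in M1 (log2 2.58 ± 0.10), and *Itgb8*, a binder of latent TGF-β with alpha v, from 0.953 to 14.4 CPM in M2 (log2 3.62 ± 0.23). *Itga9* decreased in M2 from 22.7 to 2.40 CPM (log2 -3.34 ± 0.14), and *Itga1*, a collagen receptor chain, increased in M2 from 0.615 to 3.04 CPM (log2 2.34 ± 0.21). *Itgad* and *Itga11* fell in M1 from medians of only 1.16 and 0.308 CPM.

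Of 20 listed ligands that were tested out of 28, 6 were higher and 14 lower in M1 (median log2 difference -1.43), and 5 were higher and 11 lower in M2 (median -0.32), against the 40.3% and 39.6% of all genes called lower. Fibroblast markers moved alongside, with 4 of 4 tested lower in M1 and 3 of 4 in M2, and *Col1a1* is in both lists. Their part in the ligand values was not tested. *Spp1*, the RGD protein osteopontin, dropped from a median of 2232 to 225 CPM in M1 (log2 -3.14 ± 0.17), and *C3*, whose fragment iC3b is bound by Mac-1, rose from 54.0 to 1565 CPM (log2 4.62 ± 0.32). *Fn1*, fibronectin, rose in M2 from 35.7 to 349 CPM (log2 3.18 ± 0.26), and *Thbs1*, thrombospondin, fell from 272 to 27.9 CPM (log2 -3.49 ± 0.23). *Vcam1* and *F11r* fell in M2 (log2 -2.13 ± 0.24 and -2.96 ± 0.28), and *Npnt* and *Edil3* in M1 (log2 -4.73 ± 0.70 and -2.77 ± 0.19), with *F11r* and *Npnt* below 1 CPM at the M0 median.

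Cytoplasmic partners and activators moved in both directions. Of 44 tested out of 45, 19 were higher and 20 lower in M1, and 15 were higher and 18 lower in M2. Of all genes, 37% were called higher and 40.3% lower in M1, and 36.8% higher and 39.6% lower in M2. *Zyx*, the focal adhesion protein zyxin, rose with both stimuli from a median of 177 CPM to 1648 CPM in M1 (log2 3.29 ± 0.10) and 748 CPM in M2 (log2 2.12 ± 0.09). *Dab2*, an endocytic adaptor of beta tails, fell in M1 from 1005 to 162 CPM (log2 -2.60 ± 0.15), *Fyb* (ADAP) fell in M2 from 441 to 144 CPM (log2 -1.65 ± 0.09), and *Plaur*, the urokinase receptor, rose in M2 from 55.8 to 177 CPM (log2 2.08 ± 0.19). The main talin and kindlin of leukocytes had medians of 873 to 1355 CPM for *Tln1* and 461 to 593 CPM for *Fermt3*. Against M0, *Tln1* was called lower in M1 (log2 -0.22 ± 0.05) and higher in M2 (log2 0.43 ± 0.05). *Fermt3* was called higher in M1 (log2 0.34 ± 0.03) and was not called in M2. *Parva* and *Tln2* fell in M1 and *Bcar1* in M2, from medians near 1 CPM or below. The list includes *Rap1gap* and *Fgr*, genes that the study itself selected on these libraries.

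No integrin gene was called between genotypes. With the polarizations averaged, this held for p.284R against p.254I (0.0155% of all genes were called), for p.254V against p.254I (0.0155%) or for p.284R against p.254V (0%). Before adjustment, a p under 0.05 was reached over all genes by 565, 323 and 607 genes in these comparisons, and among the 10 integrin genes by *Itgb2* in the first, by none in the second and by *Itga5* in the third. Approximate 95% intervals came from the main fit, which counts the cultures of a mouse as independent, so they do not measure the spread between mice. For the p.284R to p.254I ratio they ran from 0.948 to 1.03 for *Itgb1* and from 0.917 to 1.07 for *Itgam*. They were wider for *Itgal* (0.976 to 1.74) and *Itgax* (0.886 to 1.45). For p.254V they ran from 0.945 to 1.03 for *Itgb1* and from 0.830 to 1.48 for *Itgal*.

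**Figure D4:**
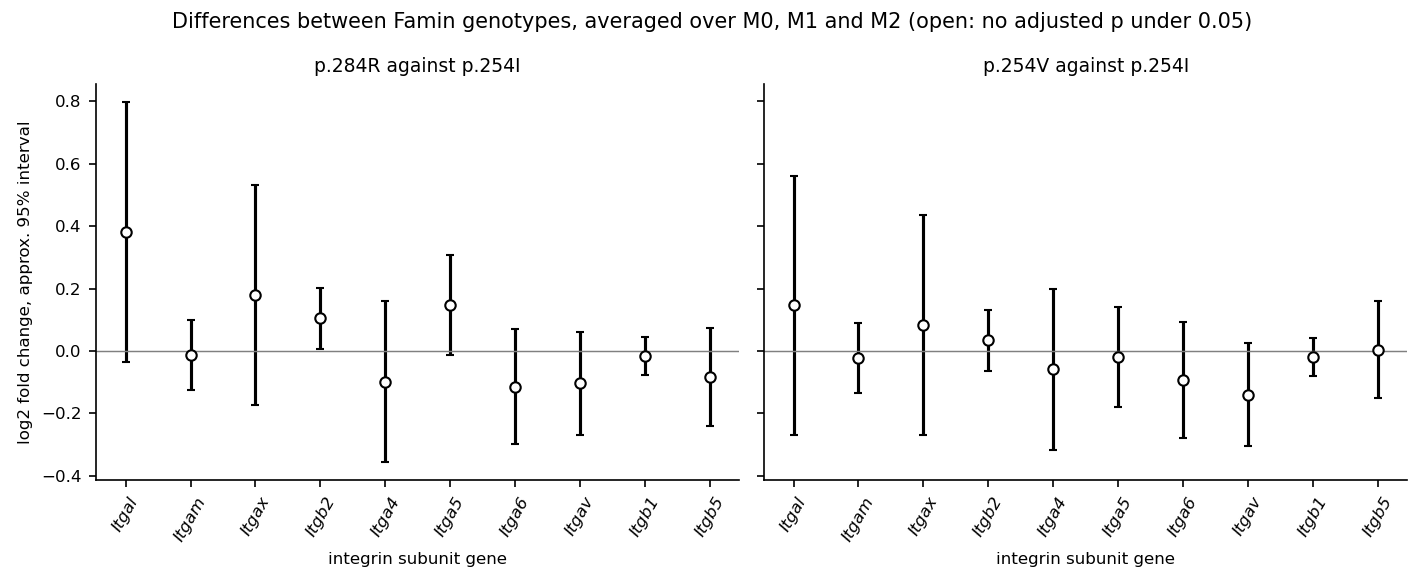
Log2 fold changes (points) with approximate 95% intervals (bars) of the 10 integrin genes in *Famin* p.284R and p.254V against p.254I, as means of the 3 polarizations, with 5 mice per genotype. No difference was called, and the intervals are widest for *Itgal* and *Itgax* and narrowest for *Itgb1*. They come from the main fit, which does not model the mouse.

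*Itgb2* had the smallest p in the p.284R comparison, with a log2 difference of 0.10 ± 0.05 (adjusted p = 1.00 in edgeR). In M0 its mean was 1193 ± 82.0 CPM (SD, n = 5) in p.254I, 1264 ± 82.8 CPM in p.254V and 1268 ± 84.2 CPM in p.284R. In M2 it was 2793 ± 449, 2780 ± 113 and 3057 ± 317 CPM. The libraries of the genotypes overlapped in both states. Without the 3 libraries of p.254I replicate 4 and the M1 library of replicate 5, the averaged difference was 0.07. For *Itgav*, which had the smallest p for p.254V, the averaged log2 difference of -0.14 ± 0.08 became 0.01 without those libraries. *Itgax* had means of 1826 ± 375 CPM in p.254I, 2000 ± 257 CPM in p.254V and 2131 ± 186 CPM in p.284R in M2, with overlapping libraries.

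Within single polarizations no integrin gene was called either. For p.284R against p.254I this held in M0, M1 and M2, where 0%, 0.263% and 0.00775% of all genes were called, and for p.254V against p.254I in each state, where 0% were. Before adjustment, 140, 864 and 148 genes had a p under 0.05 in M0, M1 and M2 for p.284R, and 231, 120 and 329 for p.254V. The M1 comparison of p.284R held 3 integrin genes at that level: *Itgb5* (log2 -0.37 ± 0.14, unadjusted p = 0.0119 and adjusted p = 0.503 in edgeR), *Itga5* (log2 0.34 ± 0.14, adjusted p = 0.613) and *Itga6* (log2 -0.34 ± 0.17, adjusted p = 0.739). *Itgb5* in M1 was at 98.3, 85.0, 68.7, 69.9 and 63.0 CPM in the 5 p.284R mice and at 91.5, 100.1, 106.6, 109.3 and 88.8 CPM in the 5 p.254I mice, so 4 of the 5 p.284R values were below all p.254I values and 1 was not. *Itga5* in M1 was at 131, 114, 170, 210 and 206 CPM in p.284R and at 117, 98.2, 168, 144 and 128 CPM in p.254I, which overlapped.

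The change in genotype effect from M0 to M1 or M2 gave no call for any integrin gene or for any gene at all (0% in each of the 4 interactions), although 356 and 70 genes had a p under 0.05 before adjustment for p.284R in M1 and M2, and 111 and 167 did for p.254V. *Itgb5* was the single integrin gene at that level, for p.284R in M1 (log2 -0.42 ± 0.20, adjusted p = 1.00). The DESeq2 Wald test called none of the 10 genes in any genotype or interaction comparison.

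Several integrin genes varied between mice with the replicate number of the labels. Over 8404 genes, libraries with the same number but different genotypes deviated from their group means together, with correlations above 0.1 in 15 of 15 pairs in M0 (0.12 to 0.88), 15 of 15 in M1 (0.30 to 0.88) and 13 of 15 in M2 (-0.44 to 0.79). What a number stands for is not stated, and the lane of each library is not given in the sources used here. The pattern was visible in *Itga4*: the 9 M0 libraries numbered 1 to 3 had 236 to 373 CPM and the 6 numbered 4 or 5 had 158 to 193 CPM. *Itgal* split in the same way in M0, at 81.3 to 181 CPM against 24.8 to 55.2 CPM. In M1 the same split overlapped for *Itga4* (314 to 510 against 223 to 322 CPM) and *Itgal* (343 to 505 against 292 to 468 CPM). In M2 it overlapped for *Itga4* and was apart for *Itgal*. Summed macrophage markers differed alongside, at 26138 to 33554 CPM for numbers 1 to 3 and 20072 to 25324 CPM for 4 and 5 in M0. The largest of these markers was *Lyz2*, at a median of 17251 CPM in M0. Summed neutrophil markers were 57.1 to 253 CPM and 23.5 to 83.2 CPM. Their part in the result was not tested. *Itgax* in M0 was instead highest in replicate 1 of each genotype (253, 281 and 303 CPM).

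**Figure D5:**
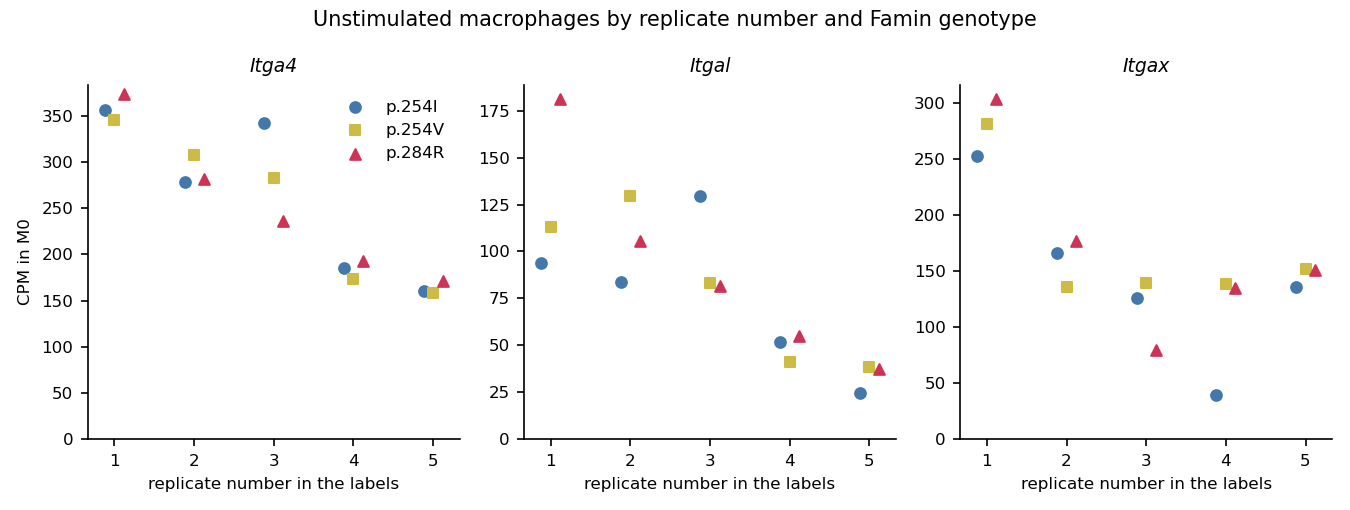
CPM of *Itga4*, *Itgal* and *Itgax* in the 15 M0 libraries (linear axes from 0) against the replicate number given in the labels, with colour and shape for the *Famin* genotype. For *Itga4* and *Itgal* all libraries numbered 1 to 3 lie above those numbered 4 and 5, and for *Itgax* the libraries numbered 1 are the highest, at 253 to 303 CPM.

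Among libraries of one group, *Itga4* and *Itgal* deviated together (Pearson r of the deviations 0.77 over the 45 libraries), as did *Itga5* and *Itgav* (0.62), while *Itga4* and *Itga5* deviated oppositely (-0.72). The libraries share mice and replicate numbers, so these values describe the set and carry no test. Over all libraries, the gene whose log2 CPM was most like that of each integrin gene was also found. *Itgax* was closest to *F10*, coagulation factor X (r = 0.99), *Itgb5* to *Adcy9* (0.99), *Itgb2* to *Ocstamp* (0.98), *Itga6* to *Abcb1b* (0.98), *Itgal* to *Tbc1d9* (0.97), *Itgam* to *Frrs1* (0.97) and *Itga4* to *Rapgef6* (0.96). The best matches were weaker for *Itgav* (*Sipa1l1*, 0.91), *Itgb1* (*Mtpn*, 0.88) and *Itga5* (*Tcof1*, 0.83). All of these are over 45 libraries that share mice, and most genes differ between the 3 states.

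Markers of other cells were low except for the dendritic cell list in M1. The 7 neutrophil markers summed to medians of 66.0 CPM in M0, 54.9 CPM in M1 and 28.3 CPM in M2, with *Ly6g* at 0.0678 CPM or less at the median, and the T cell, platelet and mast cell lists each summed to at most 3.11 CPM in any library. Of the B cell markers, *Cd79b* was at a median of 9.12 CPM in M0 and 3.11 CPM in M2. Fibroblast markers summed to 34.3, 11.5 and 17.9 CPM. The dendritic cell list, of interest because CD11c is also a dendritic cell marker, summed to medians of 1.18 CPM in M0, 303 CPM in M1 and 8.39 CPM in M2. In M1 the sum was *Clec9a* (294 CPM) with *Xcr1* (8.17 CPM). Of the 3 members tested, these 2 were called higher in M1 than in M0 and 1, *Zbtb46*, lower. *Zbtb46* had medians of 0.578 CPM in M0 and 0.316 CPM in M1 (log2 -0.98 ± 0.24). In M2, where *Itgax* was high, *Zbtb46* was at 7.34 CPM, *Clec9a* at 0.814 CPM and *Xcr1* at 0 CPM at the median. *Flt3* was at 0.163 CPM or less at the median of each state. The part of such cells in the integrin values was not tested.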

How the data were processed

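RNA of 45 macrophage cultures was sequenced as stranded mRNA libraries. The authors deposited a count table, whole-number counts of reads per Ensembl gene without normalization, and a CPM table of 11900 genes. From the CPM the authors deposited, recovered reads equalled the counts in 100% of values (within 0.01 reads). The paper and the processing notes name FastQC, Trim Galore, HISAT2, mm10 and limma, and the series text Cutadapt and STAR. The counting tool, annotation and use of strand are not given in the sources used here.

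The counts were fitted in edgeR 4.0.16 under R 4.3.3 (filterByExpr over the 9 groups, TMM factors from 0.939 to 1.10, robust glmQLFit of all libraries, Benjamini-Hochberg adjustment over 12905 genes), with limma 3.58.1 and DESeq2 1.42.0 as alternatives. Polarizations were compared as means over genotypes, genotypes as means over polarizations, and interactions as changes from M0. On simulated counts for M1 against M0 (12663 genes), 86 of 99 genes changed by log2 0.5 and 93 of 97 changed by log2 1 were recovered, with 5 false calls. That simulation drew only 200 changed genes and independent libraries, with no effect of mouse or replicate number. In the data 77.3% of all genes were called in this comparison, so these rates do not carry over to it. Positions and exon lengths came from GENCODE vM21. The members, gene lists, motifs and alternatives were chosen with earlier results of these data known. All 10 members were named, and from each other list up to 4 called genes with the largest absolute log2 change. Neighbouring genes, talin, kindlin and markers were named as context. At these depths 1 CPM is 17.2 to 43.7 reads. No libraries were identical (0 pairs). Where leaving out a mouse left 4 in a genotype, the spread was pooled over all groups.

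The series text gives 5 mice per genotype polarized to each state, so libraries alike in genotype and replicate number were paired as 1 mouse. The pairing was used for ratios per mouse, for leaving out mice and for the fits with the mouse as a block. The main fit did not model the mouse and counted all libraries as independent. Deviations of paired libraries correlated above 0.1 in 37 of 45 pairs (-0.19 to 0.64, 8404 genes). The fits without and with a replicate block called the same number of members in every comparison. P-values, standard errors and intervals of the main fit measure the spread between cultures and do not account for the mouse.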

Additional observations from a re-analysis of the deposited data

Results flagged for a closer look

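In each of 90 groups of 5 libraries (10 integrin genes in 9 groups), the highest and the lowest value were compared with the others by Dixon's ratio, which chance passes in about 1 of 20 groups. It was passed in 2. *Itgax* in M0 cells of *Famin* p.254V was at 281 CPM in replicate 1, against 136 to 152 CPM in the other 4 mice, and replicate 1 was also the highest M0 library for this gene in the other genotypes. *Itgb1* in M1 cells of *Famin* p.254V was at 718 CPM in replicate 2, against 652 to 666 CPM in the other 4. No interaction between genotype and polarization was called for an integrin gene.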

How the results depend on the processing

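Over the 25 or 26 alternatives run for each comparison, chosen with earlier results known and 2 of them after seeing these data, the number of integrin genes called stayed within 1.5 times in every comparison. For M1 against M0, *Itgav* lost its call under 13 of 26, among them DESeq2 size factors in edgeR (adjusted p = 0.0504), no low-count filter (0.0591), at least 10 counts in every library (0.0738) and the reads recovered from the CPM table (0.0576). *Itgb1* lost its M2 call without the low-count filter. With a replicate block, *Itgav* was called at adjusted p = 0.00199 (edgeR, log2 0.19) and *Itga5* in M1 stayed uncalled (0.657). Leaving out each mouse moved the log2 change of *Itga5* in M1 between -0.0044 and 0.0656, negative only without p.254I replicate 3. It moved that of *Itgav* in p.254V against p.254I between -0.223 and 0.0016, positive only without p.254I replicate 4. Without the 3 libraries of that mouse and the M1 library of p.254I replicate 5, the *Itgav* change was 0.0124. None of these was called, and the cause was not tested. The median level of *Itgam* per kilobase became 190, 99.0 and 230 in M0, M1 and M2 with all its reads divided by the unshared exon bases. The counting of reads in *Gm49368* and *Itgam* limits levels between genes, and 5 mice per genotype limit small genotype differences.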
